A study of Drosophila melanogaster with 12 samples.

Results

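LM1 is the cluster of larval blood cells (hemocytes) that the study named as intermediate lamellocytes. Its members were the cells of the merged single-cell count table whose deposited cluster number is the one the study paired with LM1, and they numbered 1993 of 19458 cells. The table holds unique molecular identifier (UMI) counts, a tally of captured mRNA molecules, for 10392 genes in 11 libraries. Wounded larvae gave 947 LM1 cells in 4 libraries, larvae 24 hr after wasp infestation gave 735 in 3 libraries, and unwounded larvae gave 311 in 4 libraries. The wounded and unwounded larvae both carried w;Hml-GAL4Δ, UAS-2X EGFP, in which a driver from the plasmatocyte gene Hml directs EGFP. Wounding was done at 96 hr after egg laying (AEL) by a puncture of the dorsal posterior body wall with a tungsten needle, and both groups were bled 24 hr later. The wasp inf. 24 hr larvae were OreR, a wild-type strain, infested at 72 hr AEL with Leptopilina boulardi and dissected at 96 hr AEL. Each library pooled many larvae that had been vortexed to release attached hemocytes. Replicates 1 and 2 of wounded and unwounded were 10X Chromium libraries and replicates 3 and 4 were inDrops libraries, in which the wounded and unwounded cells of a number were run in 1 multiplexed sample. All wasp inf. 24 hr libraries were Drop-seq, made without the density gradient used for the others and mapped to an older annotation, and no uninfested Drop-seq library was analysed here. For any difference between wasp inf. 24 hr and unwounded libraries, infestation, strain, age, cell isolation, technology and annotation therefore cannot be told apart.

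Plasmatocytes are the macrophage-like cells that make up most of the larval blood, crystal cells carry prophenoloxidases for melanization, and lamellocytes are large flat cells that are rare in healthy larvae and that encapsulate parasitoid eggs. Lamellocytes can arise from plasmatocytes, and cells in passage hold genes of both types. Their maturation is accompanied by changes in integrin adhesion, the actin and tubulin cytoskeleton and signalling through the JNK and JAK/STAT pathways.

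LM1 took 8.75, 9.33, 17.7 and 7.81% of the cells of wounded libraries 1 to 4, and 38.1, 16.9 and 8.27% of those of wasp inf. 24 hr libraries 1 to 3, against 8.84, 14.0, 5.87 and 2.03% of those of unwounded libraries 1 to 4. The groups overlapped. The mean was 10.9 ± 4.57% in wounded and 7.69 ± 5.06% in unwounded libraries (SD, n = 4 each), a difference of 3.20 percentage points with an exact two-sided permutation p of 0.371 over 70 arrangements, of which the smallest possible is 0.0286. Within 10X Chromium the means were 9.04% in wounded and 11.4% in unwounded, and within inDrops 12.7% in wounded and 3.95% in unwounded, so the direction differed between technologies. The wasp inf. 24 hr mean was 21.1 ± 15.4% (SD, n = 3), with an exact two-sided permutation p of 0.143 against unwounded in a design that cannot go below 0.0571. Cells were placed in LM1 by genes whose levels differed between conditions, as given next, so these shares are a description of the clustering and not a count of a fixed kind of cell. The depth behind LM1 was also uneven: unwounded 4 had 10 LM1 cells with 12647 UMIs in all, and the other libraries had 191358 to 3279820 LM1 UMIs.

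The 2 genes used here as markers of the cluster were atilla and alphaTub85E. atilla encodes a membrane-anchored Ly6-family protein recognized by the lamellocyte antibody L1, and alphaTub85E an alpha-tubulin isotype. Neither is particular to LM1: the study names both for its lamellocyte cluster LM2, and both were higher in LM2 than in LM1, as given below. Both lie on the minus strand of the Release 6 genome, atilla (FBgn0032422) at 2L:12175451-12177886 and alphaTub85E (FBgn0003886) at 3R:9731221-9733250. An atilla UMI was found in 12.5, 15.7, 17.1 and 16.8% of LM1 cells of wounded libraries 1 to 4, in 59.4, 43.7 and 67.8% of those of the wasp inf. 24 hr libraries, and in 0, 0.885, 3.33 and 10% of those of unwounded libraries 1 to 4. The last of these is 1 of 10 cells, and 0 of 68 cells in unwounded 1 allows a share of up to 4.41% of cells with a captured atilla UMI. Cells that hold atilla mRNA without a captured UMI are not counted by these shares. Pooled over libraries, 149 of 947 wounded LM1 cells held an atilla UMI, 412 of 735 did after infestation, and 6 of 311 did without wounding.

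Crystal cells, which should lack atilla, give the level that free RNA can reach. Crystal cells had an atilla UMI in 1.74 to 4.17% of wounded cells, in 6.25 and 10% of cells of wasp inf. 24 hr 2 and 3, and in 0 to 2.08% of unwounded cells. The median depth in wounded libraries was 3085 to 4478 UMIs in LM1 cells and 2518 to 10014 UMIs in crystal cells. With every cell thinned to 1000 UMIs and shallower cells left out (1 wounded, 6 wasp inf. 24 hr and 9 unwounded LM1 cells), the atilla share of LM1 was 7.69 to 10.6% in wounded, 29.0 to 53.4% in wasp inf. 24 hr and 0 to 0.885% in unwounded libraries. Thinned crystal cells had 0 to 2.68% in wounded, 0 and 3.33% in wasp inf. 24 hr and 0% in unwounded libraries. The LM1 share thus stood above that of crystal cells in every wounded library, and in both wasp inf. 24 hr libraries that held crystal cells. In unwounded libraries it lay near that of crystal cells before and after thinning, apart from the 1 cell of unwounded 4. Plasmatocytes of the wounded libraries, at 1.53 to 3.55% before thinning, were below the crystal cells of their own library.

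The second marker was found in more LM1 cells than atilla in the wounded and unwounded libraries and in fewer in the wasp inf. 24 hr libraries. An alphaTub85E UMI was found in 68.8, 69.2, 78.7 and 78.3% of LM1 cells of wounded libraries 1 to 4, in 58.0, 31.1 and 41.6% of those of wasp inf. 24 hr libraries, and in 27.9, 30.1, 35 and 30% of those of unwounded libraries. Plasmatocytes (PM1 to PM12) of the same libraries had it in 26.2 to 40.7% of wounded, 7.26 to 11.5% of wasp inf. 24 hr and 9.38 to 13.9% of unwounded cells. LM1 was above plasmatocytes in all 11 libraries, and also with cells thinned to 1000 UMIs, at 37.4 to 56.6% of wounded, 12.3 to 23.2% of wasp inf. 24 hr and 8.85 to 14.3% of unwounded LM1 cells. At least 1 of the 2 markers was seen in most wounded LM1 cells, and neither was seen in 214 of 947 cells (22.6%). Neither was seen in 282 of 735 wasp inf. 24 hr cells (38.4%) and in 208 of 311 unwounded cells (66.9%). Against its label of intermediate lamellocytes, the cluster held atilla in a minority of wounded cells, in 43.7 to 67.8% of cells of the wasp inf. 24 hr libraries and almost nowhere in unwounded libraries. It is called LM1 below with no cell type implied.

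**Figure D1:**
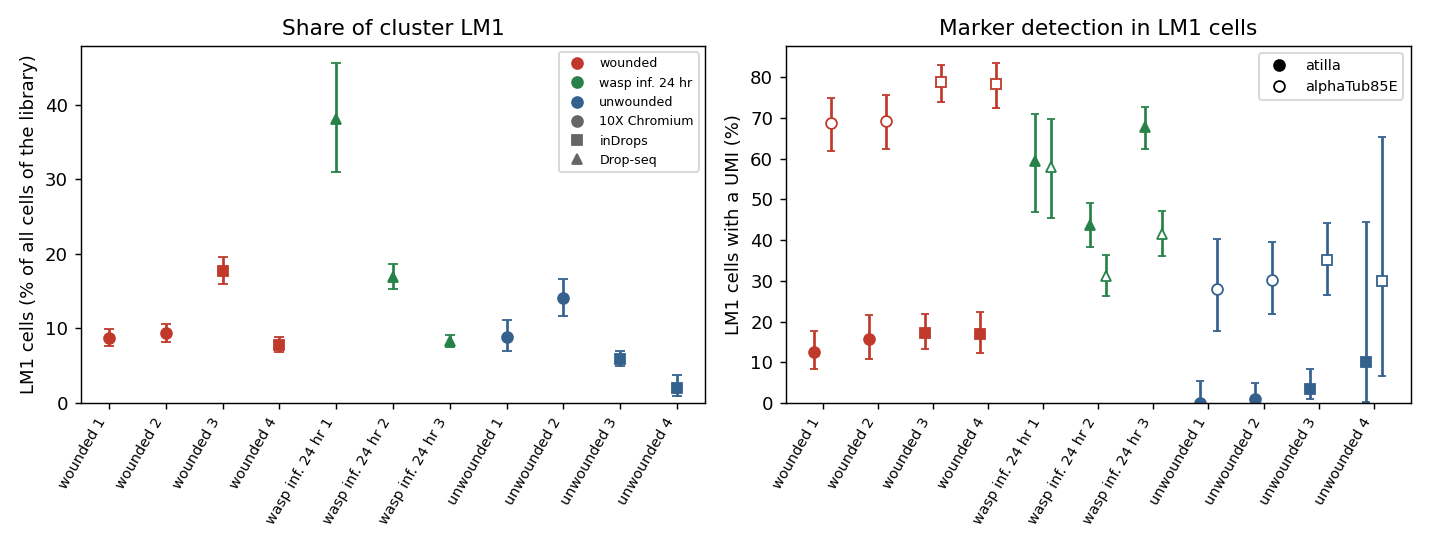
LM1 cells as a percent of all cells of each library, with exact 95% Clopper-Pearson intervals that cover counting error only, and the percent of LM1 cells with at least 1 atilla UMI (filled) or alphaTub85E UMI (open). Shares overlap between conditions, from 2.03 to 38.1%, whereas the atilla share is 12.5 to 17.1% in wounded, 43.7 to 67.8% in wasp inf. 24 hr and 0 to 10% in unwounded libraries.

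Most LM1 cells still carried Hml, the hemolectin gene by which plasmatocytes are recognized. Hml was detected in 95.6 to 99.5% of wounded, 56.3 to 79.3% of wasp inf. 24 hr and 90 to 100% of unwounded LM1 cells. Among the LM1 cells with an atilla UMI, 96.2, 96.8, 90.7 and 84.2% of those in wounded libraries 1 to 4 and 75.6, 79.5 and 56.9% of those in the wasp inf. 24 hr libraries also held an Hml UMI. The same cells thus held both markers in every one of these libraries, although crystal cells held Hml UMIs in 80 to 100% of cells too, and how much free Hml RNA adds was not tested. LM1 was not the only class with atilla: it held 29.2, 41.3, 41.2 and 35.8% of all atilla-positive cells in wounded libraries 1 to 4 and 57.7, 64.0 and 30.7% in the wasp inf. 24 hr libraries. Plasmatocytes held 34.8, 42.7, 35.1 and 42.5% of them in wounded and 19.7, 29.4 and 52.7% in wasp inf. 24 hr libraries, which is more than LM1 in wounded 1, 2 and 4 and in wasp inf. 24 hr 3. In wounded libraries plasmatocytes far outnumbered LM1 cells, with 2025, 1816, 1294 and 2527 against 208, 198, 315 and 226. As given above, their atilla share there was below that of crystal cells. How much free atilla RNA adds to these plasmatocyte counts was not tested. The unwounded libraries had 0, 4, 10 and 4 atilla-positive cells in all.

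LM1 cells were deeper than plasmatocytes, though not than LM2 or crystal cells in every library. The median UMI count of LM1 cells was 1.13 to 2.29 times that of plasmatocytes and higher in all 11 libraries. Thinned to equal depth, LM1 cells still had more genes detected per cell in all 11 libraries (for example 537 against 521 in wounded 1, 505 against 468 in wasp inf. 24 hr 2 and 529 against 520 in unwounded 1). No doublet caller was run, so what cell doublets add to the cluster was not tested. Of the 1993 LM1 cells, 23 had a barcode that also occurred in another library of the same technology.

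Levels below are in CPM, a gene's UMIs scaled to a total of 1000000 UMIs summed over the LM1 cells, or over the plasmatocytes, of 1 library. The cells had been clustered on these same genes, so LM1 against plasmatocytes is described without a test. The measure is the log2 ratio of CPM within a library with 1 CPM added to each. Of 5744 genes with a mean of at least 10 CPM, 348 (6.06%) were higher in LM1 in at least 10 of 11 libraries and 252 (4.39%) were lower, and the median ratio over all genes was 0.

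The largest ratio among abundant genes was that of atilla. atilla had 192, 257, 128 and 161 CPM in LM1 of wounded libraries 1 to 4, 1222, 1046 and 2073 CPM in LM1 of wasp inf. 24 hr libraries, and 0, 42.5, 11.1 and 79.1 CPM in LM1 of unwounded libraries. Plasmatocytes had 6.06 to 16.8 CPM in wounded, 15.4 to 123 CPM in wasp inf. 24 hr and 0 to 1.78 CPM in unwounded libraries. LM1 was above plasmatocytes in 10 of 11 libraries with a median log2 ratio of 4.07, and in unwounded 1 both were at 0. In unwounded 2 all 32 atilla UMIs of LM1 came from 1 cell. alphaTub85E had 922, 767, 1232 and 1362 CPM in wounded LM1, 421, 284 and 568 CPM in LM1 cells 24 hr after infestation and 141, 101, 178 and 474 CPM in unwounded LM1. Its plasmatocyte levels were 106 to 333, 9.13 to 28.2 and 40.6 to 112 CPM in the same conditions, and its median log2 ratio of 2.07 was positive in all 11 libraries.

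PPO3, the prophenoloxidase of lamellocytes, stood at 122, 123, 99.6 and 78.6 CPM in wounded LM1, 404, 175 and 296 CPM in wasp inf. 24 hr LM1 and 10.5, 29.2, 8.89 and 237 CPM in unwounded LM1. The 237 CPM of unwounded 4 is 3 UMIs. LM1 was above plasmatocytes in all 11 libraries for PPO3, with a median log2 ratio of 3.44. betaTub60D, a beta-tubulin isotype, had 181, 150, 342 and 233 CPM in wounded LM1, 1229, 709 and 2222 CPM in LM1 cells 24 hr after infestation and 10.5, 3.98, 11.1 and 0 CPM in unwounded LM1. For betaTub60D the 3 conditions did not overlap in LM1. Of the 15 lamellocyte markers, 9 were abundant enough to count and 5 of them (atilla, alphaTub85E, PPO3, mys and cher) were higher in LM1 in at least 10 of 11 libraries, with none lower, against 6.06% of all genes. The study took part of that list from these same libraries, so it is not independent evidence. Of the list, ItgaPS4, CG1208, CG4607 and Drip were at 0 in unwounded LM1. ItgaPS4 was also at 0 in LM1 and in plasmatocytes of the wasp inf. 24 hr libraries, and whether their annotation could measure it was not tested. The summed level of the 15 genes in LM1 was 2854 to 3615 CPM in wounded, 4643 to 8659 CPM in wasp inf. 24 hr and 867 to 3084 CPM in unwounded libraries.

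**Figure D2:**
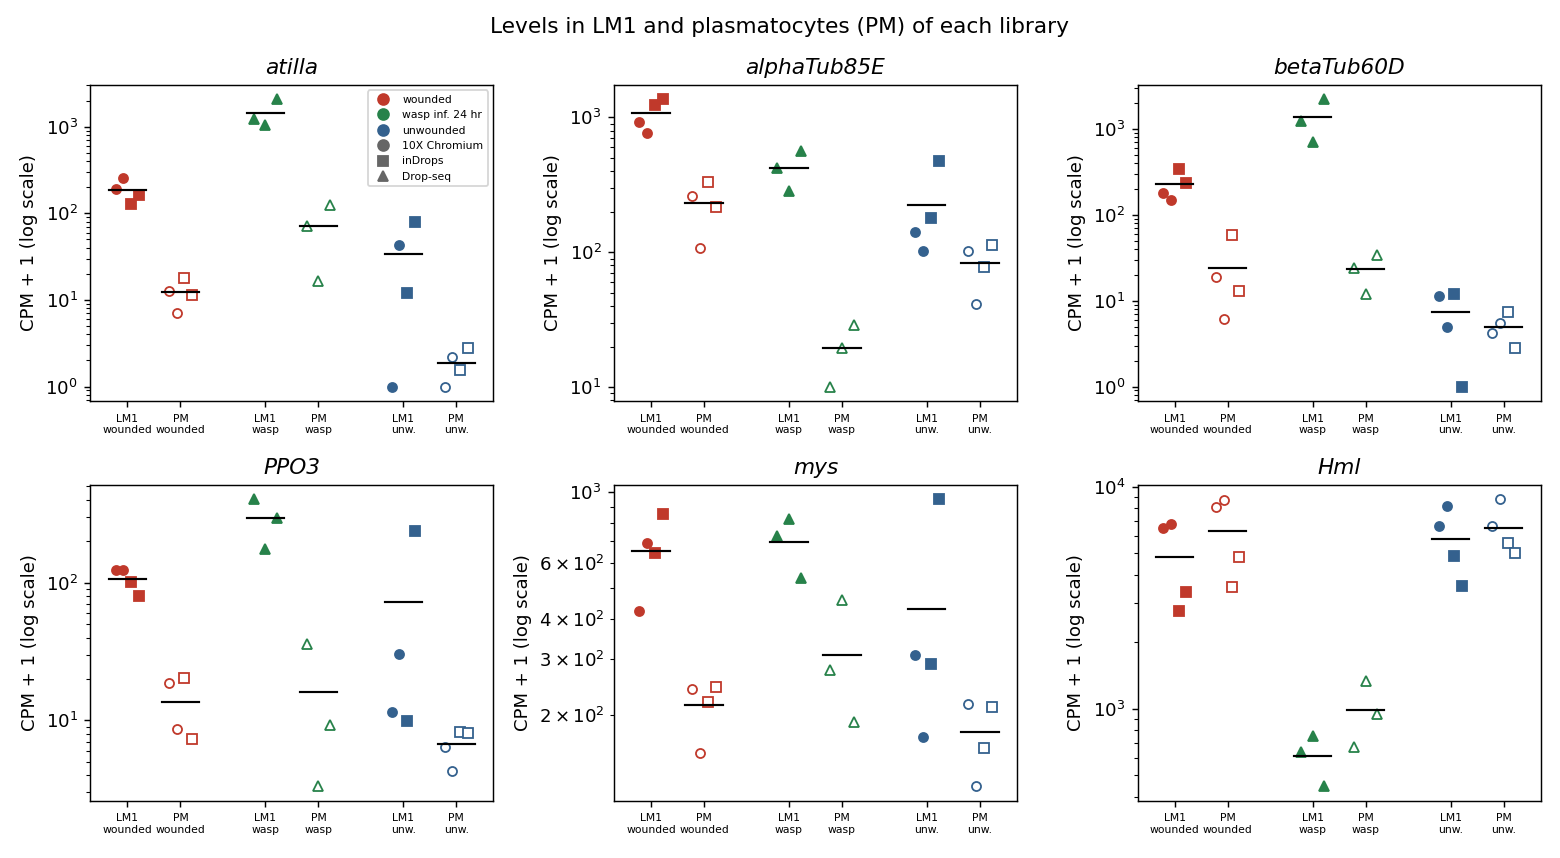
CPM plus 1 on a log axis for atilla, alphaTub85E, betaTub60D, PPO3, mys and Hml in LM1 (filled) and plasmatocytes (open), 1 point per library in wounded, wasp inf. 24 hr and unwounded, with bars at the means. atilla and betaTub60D reach 2073 and 2222 CPM in LM1 of wasp inf. 24 hr and are at or near 0 in LM1 of several unwounded libraries, whereas Hml is close to its plasmatocyte level.

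Other genes with high ratios included 4 genes of serine proteases or their homologues. CG18754 had a median log2 ratio of 3.99, CG31219 of 2.96, CG16710 of 2.81 and CG33225 of 1.95. CG18754 had 219, 507, 495 and 375 CPM in wounded LM1, 38.5, 40.2 and 70.1 CPM in wasp inf. 24 hr LM1 and 5.23, 0, 15.6 and 158 CPM in unwounded LM1. It was the only one of those 4 whose wounded LM1 values all exceeded its wasp inf. 24 hr LM1 values. wun2, a lipid phosphate phosphatase, had a median log2 ratio of 2.97, and Ac78C, an adenylyl cyclase, of 2.02.

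Some genes set LM1 apart from plasmatocytes without wounding or wasps. pyr, one of the FGF8-like ligands of the receptor Heartless, had 28.1, 80.3, 65.4 and 50.5 CPM in wounded LM1, 84.5, 189 and 99.2 CPM in LM1 cells 24 hr after infestation and 15.7, 26.6, 22.2 and 79.1 CPM in unwounded LM1. Its log2 ratio over plasmatocytes was positive in all 11 libraries, at 1.67 to 3.58 in wounded, 1.90 to 3.01 in wasp inf. 24 hr and 1.71 to 3.66 in unwounded. sano behaved likewise, with log2 ratios of 1.55 to 3.10 in wounded, 2.92 to 3.75 in wasp inf. 24 hr and 1.28 to 3.99 in unwounded libraries. Mmp2, a membrane-anchored matrix metalloproteinase, had log2 ratios of 1.23 to 2.99, 1.99 to 4.12 and 1.01 to 4.22 in the same order. The highest unwounded ratio of each gene was that of unwounded 4, from 1 LM1 UMI of pyr, 7 of sano and 4 of Mmp2. For pyr the unwounded libraries held 3, 20, 10 and 1 UMIs in LM1 and 2, 25, 30 and 3 in plasmatocytes. These 3 genes were above plasmatocytes in every library, unwounded ones included. They are not particular to LM1: LM2, described below, was above plasmatocytes for each in all 6 libraries with at least 10 LM2 cells. There pyr averaged 120 CPM in LM2, 75.8 CPM in LM1 and 15.2 CPM in plasmatocytes. CG43175, CG7956 and CG10126, of which no role is given here, completed the highest ratios at medians of 2.42, 2.16 and 1.75.

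The lowest ratios were smaller in size. CG2444 was lowest, with a median log2 ratio of -1.87 and values below 0 in all 11 libraries. mthl6, of the methuselah-like receptor family, had -1.17, the tetraspanin TM4SF had -1.08, the glycerol channel gene Eglp4 had -0.98 and the lysosomal mannosidase LManI had -0.97. CG12512 had -1.09, Nepl20, of the neprilysin-like family, had -0.95, the adenylate kinase Adk3 had -0.93, CG15093 had -0.92 and the glutamine synthetase Gs1 had -0.89. Gs1 was at 0 in wasp inf. 24 hr LM1 and at 0.56 to 1.13 CPM in wasp inf. 24 hr plasmatocytes, so its ratio there carries little information.

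**Figure D3:**
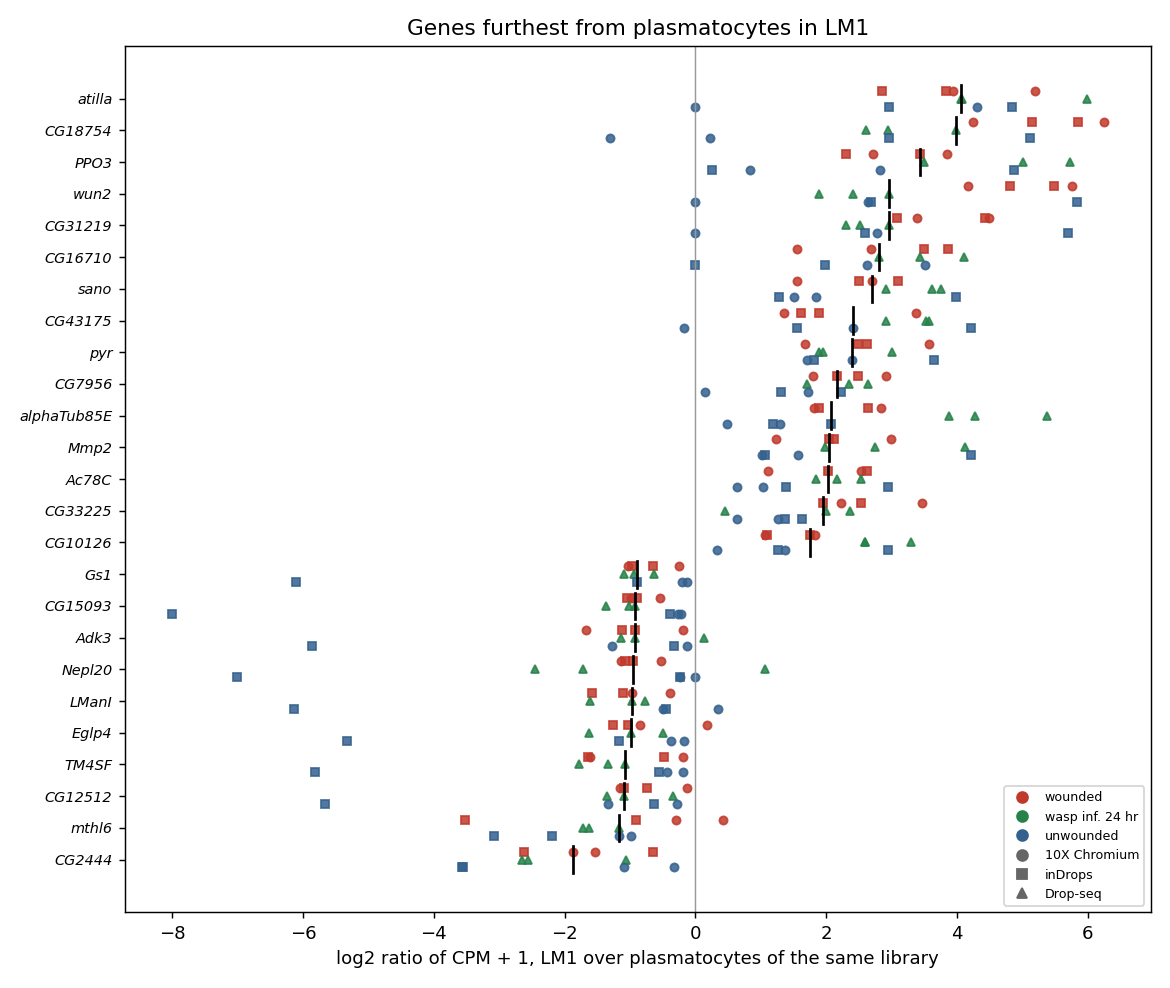
Within-library log2 ratio of LM1 over plasmatocyte CPM (1 CPM added to each) for the 15 genes with the largest and the 10 genes with the smallest median, 1 point per library by condition, black ticks marking the medians. The medians run from 4.07 for atilla to -1.87 for CG2444, and atilla, PPO3 and CG18754 spread by more than 5 log2 units over libraries.

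Adhesion and cytoskeleton genes were higher in LM1 as groups. Of 14 measured integrins and adaptors, 8 were higher in at least 10 of 11 libraries, beside 6.06% of all genes, and none was lower. ItgaPS5 and Itgbn had no UMI in LM1 or plasmatocytes of any wasp inf. 24 hr library, so they could not meet that rule. mys, the beta-PS integrin subunit, had 424, 691, 645 and 854 CPM in wounded LM1, 727, 820 and 535 CPM in LM1 cells 24 hr after infestation and 308, 170, 289 and 949 CPM in unwounded LM1, with a median log2 ratio of 1.39 over plasmatocytes. The filamin cher had a median log2 ratio of 0.78, the alpha-PS1 subunit mew 0.71, the talin rhea 0.71, the integrin-linked kinase Ilk 0.66 and the paxillin Pax 0.53. Of 26 measured actin cytoskeleton genes, 17 were higher, beside the same 6.06%, among them the Arp2/3 subunit Arp3 (median log2 ratio 0.67), the GTPase Rac2 (0.54) and the profilin chic (0.48). The actin-severing gelsolin gene Gel was the 1 that was lower (-0.61).

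Tubulins followed the same pattern, with 4 of 8 measured genes higher, beside 6.06% of all genes, and none lower. alphaTub84B and betaTub56D, the main tubulins of most cells, had median log2 ratios of 0.54 and 0.38, well under the 2.07 of alphaTub85E. In the JNK list 4 of 14 measured genes were higher, beside the same 6.06%, among them the secreted metalloproteinase Mmp1 (1.26) and the transcription factor Jra, the fly Jun (0.52). In the FGF list 3 of 7 were higher, again beside 6.06%: pyr, the GTPase Ras85D (0.60) and the adaptor Shc (0.28). None of 9 JAK/STAT genes and none of 11 antimicrobial peptides was higher or lower in at least 10 of 11 libraries, and of 10 Toll genes only the adaptor Myd88 was higher (0.58). Only CecC, Drs and Mtk of the peptides could meet that rule. The other peptides had no UMI in LM1 or plasmatocytes of several unwounded libraries, so nothing is read from the peptide count.

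Plasmatocyte markers lay near their plasmatocyte level in LM1. Of 12 plasmatocyte markers Hml alone was lower in at least 10 of 11 libraries, with a median log2 ratio of -0.36, and none was higher. Hml had 6509, 6770, 2740 and 3355 CPM in wounded LM1, 635, 753 and 445 CPM in wasp inf. 24 hr LM1 and 6668, 8221, 4865 and 3558 CPM in unwounded LM1. The wasp inf. 24 hr libraries were low in both classes, with 669 to 1330 CPM in plasmatocytes, and Col4a1 was at 0 in them in both classes. Col4a1 could therefore not count as higher or lower. Of 10 basement membrane genes 2 were lower, beside 4.39% of all genes, the glutactin gene Glt (-0.60) and the perlecan gene trol (-0.25). Of 12 phagocytic receptor genes the Nimrod gene NimB4 was lower (-0.51), and of 20 cell division genes 4 were lower, beside the same 4.39%: the kinases polo (-0.36) and aurB (-0.27), the checkpoint gene BubR1 (-0.42) and Incenp (-0.27). None of 4 crystal cell markers and none of 10 fate transcription factors was higher or lower by that rule, and of 12 sugar genes only Tpi was lower. In the detoxification list 3 of 10 genes were lower, again beside 4.39%, of which Prx2540-1 is uncertain because near-identical copies share its reads.

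Wounding was asked about within LM1 directly, by comparing UMI sums over the LM1 cells of 4 wounded and 4 unwounded libraries. Of 4961 genes tested with edgeR's quasi-likelihood test, 49 passed a Benjamini-Hochberg adjusted p of 0.05 (0.988%), 47 higher (0.947%) and 2 lower (0.0403%) in wounded. Within 10X Chromium alone 23 passed and within inDrops alone 27 passed, and with the replicate number as a block 144 passed, 104 higher and 40 lower, including all 49. Because the libraries are pools of larvae and nothing says how far the pools were raised apart, the p-values measure the spread between these libraries, which may be partly technical. The LM1 cells of each condition were placed in the cluster by the same genes that are tested, and the effect of that on the fold changes was not tested.

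The highest call was an immune effector. Drs, which encodes the antifungal peptide drosomycin (3L:3369556-3369942, plus strand), had 1178, 1616, 1172 and 1103 CPM in wounded LM1 and 15.7, 3.98, 15.6 and 0 CPM in unwounded LM1. The groups did not overlap, and the log2 fold change was 6.95 ± 0.49 (SE) with an edgeR adjusted p of 4.42e-11. Mtk, the antimicrobial peptide metchnikowin, had 839, 965, 2283 and 1244 CPM in wounded LM1 and 115, 102, 111 and 79.1 CPM in unwounded LM1, a log2 fold change of 3.48 ± 0.37 (edgeR adjusted p 2.06e-07) with no overlap. Of the 12 antimicrobial peptides measured, 3 had enough UMIs to be tested, the other being CecC, whose value is uncertain because cecropin copies are nearly identical. Drs and CecC had that many only through the wounded libraries, so nothing is read from the number that passed.

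The same peptides were abundant in wounded plasmatocytes. Drs had 1304, 709, 1175 and 1627 CPM in wounded plasmatocytes and 4.33, 9.20, 12.1 and 1.78 CPM in unwounded plasmatocytes, and Mtk had 1195, 536, 2994 and 3722 CPM against 70.3, 170, 88.5 and 17.8 CPM. A test of whether the LM1 minus plasmatocyte difference changed with wounding gave a log2 value of 0.17 for Drs and -0.19 for Mtk, both with an edgeR adjusted p of 0.999. Of 6 antimicrobial peptides in that edgeR test none passed, with 2 (AttB and CecC) at an unadjusted p under 0.05. A change of the peptides that differs between LM1 and plasmatocytes was therefore not shown.

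Lamellocyte genes were higher in wounded LM1. betaTub60D rose by 4.77 ± 0.43 on the log2 scale (SE, edgeR adjusted p 1.03e-08), alphaTub85E by 2.71 ± 0.33 (edgeR adjusted p 2.94e-06), atilla by 3.03 ± 0.43 (edgeR adjusted p 2.44e-05) and PPO3 by 2.32 (edgeR adjusted p 0.00138). For atilla, alphaTub85E and betaTub60D no unwounded library reached a wounded one, whereas for PPO3 the groups overlapped through the 3 UMIs of unwounded 4. With lncRNA:CR44316 these were the 5 of 9 tested lamellocyte markers that passed, out of 15 listed and beside 0.988% of all genes. Markers near 0 in unwounded LM1, such as betaTub60D and lncRNA:CR44316, could be tested only through the wounded libraries, and the list is not independent of these libraries, so nothing is read from that number or its direction. Within single technologies fewer libraries enter, and the atilla call was lost in 10X Chromium alone, while those of alphaTub85E, PPO3 and lncRNA:CR44316 were lost in inDrops alone. Over 17 alternatives, these among them, the log2 change was 2.72 to 4.19 for atilla and 2.59 to 2.85 for alphaTub85E. It was 1.90 to 2.71 for PPO3 and 4.12 to 7.13 for lncRNA:CR44316.

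CG18754, at the levels given above, rose by 5.60 ± 0.58 on the log2 scale (SE, edgeR adjusted p 1.52e-07), although unwounded 4, at 158 CPM from 2 UMIs, was close to the lowest wounded library. Several called genes had almost no UMIs in unwounded LM1, so raw ratios of UMIs pooled over libraries are given for them. Their 95% intervals cover counting error only and leave out the spread between libraries. CG14610 had 272 UMIs in wounded LM1 and 1 in unwounded LM1, a depth-scaled ratio of 107 (19.0 to 4229). The protease genes CG4793, with 201 against 1 UMI, and CG10232, with 120 against 1 UMI, had ratios of 78.8 (14.0 to 3129) and 47.1 (8.29 to 1874). CG1648 had 292 against 4 UMIs, 28.6 (11.1 to 106), and lncRNA:CR44316 had 241 against 3 UMIs, 31.5 (10.7 to 154). CG43175 had 600, 1390, 1286 and 1119 CPM in wounded LM1 and 10.5, 75.7, 80.1 and 316 CPM in unwounded LM1, a log2 change of 3.95 ± 0.44 (SE, edgeR adjusted p 5.14e-07). Its unwounded values rest on 2, 57, 36 and 4 UMIs.

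Among adhesion genes 2 of 15 passed, beside 0.988% of all genes, the beta-nu integrin Itgbn, with 106 UMIs in wounded LM1 against 3 in unwounded LM1 (ratio 13.9, 4.62 to 68.3), and mew, which rose by 1.88 (edgeR adjusted p 0.00594). Over 17 alternatives their calls were lost in 3 and 4. Itgbn could be tested only through the wounded libraries, so nothing is read from the 2 of 15. In the JNK list 2 of 14 tested genes passed, beside 0.988% of all genes, Mmp1 and Mmp2, at log2 changes of 1.98 (edgeR adjusted p 0.0132) and 1.66 (edgeR adjusted p 0.0167). Both calls were lost without wounded 2, where the log2 change of Mmp1 was 0.98. Mmp1 had 244, 1043, 414 and 321 CPM in wounded LM1 and 105, 94.3, 113 and 633 CPM in unwounded LM1, so the groups overlapped through unwounded 4. In the JAK/STAT list 2 of 8 tested genes passed, beside the same 0.988%, the thioester proteins Tep1 and Tep2. Tep1 had a log2 change of 1.91 (edgeR adjusted p 0.000643). Tep2 had 109 UMIs in wounded LM1 against 3 in unwounded LM1 (ratio 14.3, counting interval 4.75 to 70.2). Tep2 too could be tested only through the wounded libraries, so nothing is read from the 2 of 8. None of 12 plasmatocyte, 10 basement membrane, 11 phagocytic receptor, 9 Toll pathway and 19 cell division genes passed in edgeR or in DESeq2, and at an unadjusted p under 0.05 edgeR had 4, 3, 2, 1 and 1 of them. With the replicate block mys (1.09, edgeR adjusted p 8.70e-04), pyr (1.40, edgeR adjusted p 0.00197), rhea, ItgaPS5, CG16710, the vinculin gene Vinc, the Toll receptor gene Tl, He, PPO1 and tmod were also higher, and NimB1, Nepl20 and bt lower.

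The 2 genes that were lower in wounded LM1 are named because they were so few, and were chosen after their values were seen. Gal, a beta-galactosidase gene, had 103, 56.2, 17.6 and 16.8 CPM in wounded LM1 and 272, 139, 71.2 and 0 CPM in unwounded LM1, a log2 change of -1.55 (edgeR adjusted p 0.0132). The carboxylesterase gene alpha-Est1 had 31.7, 21.1, 23.4 and 7.01 CPM in wounded LM1 and 83.6, 65.1, 44.5 and 0 CPM in unwounded LM1, a log2 change of -1.45 (edgeR adjusted p 0.0458). Over 17 alternatives the Gal call was lost in 5 and that of alpha-Est1 in 8. Gal overlapped between the groups, and alpha-Est1 did so only through the 0 of unwounded 4.

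**Figure D4:**
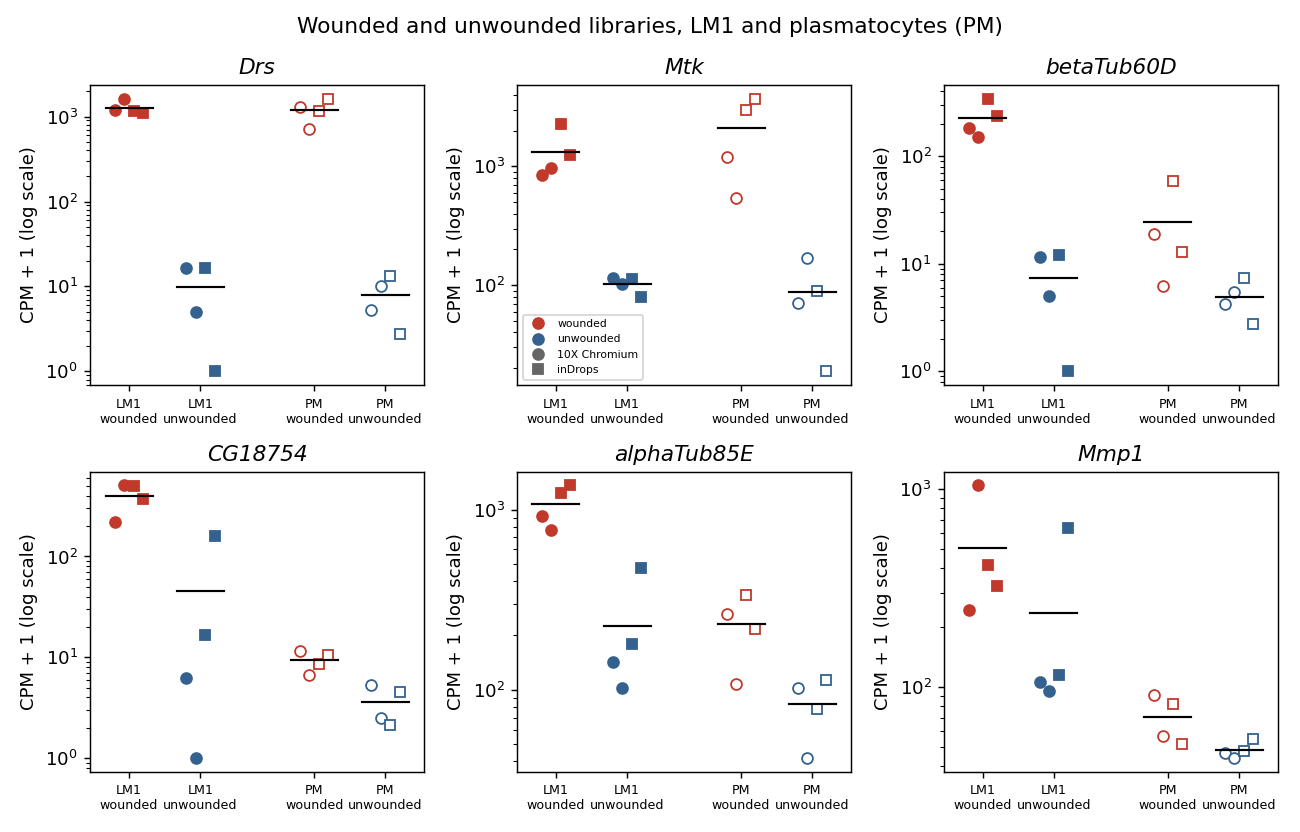
CPM of Drs, Mtk, betaTub60D, CG18754, alphaTub85E and Mmp1 in LM1 and in plasmatocytes of wounded and unwounded libraries, 1 point per library. Drs lies at 1103 to 1616 CPM in wounded LM1 and at 0 to 15.7 CPM in unwounded LM1 with a like separation in plasmatocytes, whereas the Mmp1 groups overlap in LM1.

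Whether LM1 moved differently from the plasmatocytes of the same libraries was tested as an interaction. Of 6225 genes, 42 passed (0.675%), 39 with a larger LM1 minus plasmatocyte difference in wounded (0.627%) and 3 with a smaller one (0.0482%). Without wounded 2 the number was 15, and without unwounded 2 it was 15 as well. This comparison and the previous one share all their libraries. alphaTub85E had within-library log2 ratios of 1.81, 2.84, 1.89 and 2.64 in wounded libraries 1 to 4 and 0.48, 1.29, 1.19 and 2.07 in unwounded libraries 1 to 4. The interaction was 1.21 ± 0.20 (SE, edgeR adjusted p 1.08e-06), with overlap between the groups only through the 10 cells of unwounded 4. betaTub60D had log2 ratios of 3.27, 4.61, 2.54 and 4.18 in wounded and 1.43, -0.13, 0.72 and -1.48 in unwounded, an interaction of 3.12 (edgeR adjusted p 1.78e-07) without overlap. With cells thinned to 1000 UMIs, where 9 genes passed in all, neither did. Over 15 alternatives, thinning among them, the interaction was 0.98 to 1.45 for alphaTub85E and 2.42 to 3.66 for betaTub60D. atilla did not pass, at -0.54 with an edgeR adjusted p of 0.987. Its ratio was 2.85 to 5.19 in wounded and 0 to 4.85 in unwounded libraries. The 4.85 is that of unwounded 4, from 1 UMI in LM1 and 1 in plasmatocytes. In unwounded 2 the 32 LM1 UMIs, all from 1 cell, stood against 4 in plasmatocytes.

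Of the 24 genes given for this interaction and followed through the alternatives, CG42394 and Snx17 kept their calls in all of them. CG42394 had 746, 1719, 2016 and 986 CPM in wounded LM1 and 146, 712, 351 and 1028 CPM in unwounded LM1, beside 199, 442, 418 and 214 CPM in wounded plasmatocytes and 177, 476, 234 and 176 CPM in unwounded plasmatocytes. Its interaction was 1.54 ± 0.18 (SE, edgeR adjusted p 1.93e-14). Snx17, a sorting nexin, had 189, 307, 176 and 107 CPM in wounded LM1 and 83.6, 69.1, 71.2 and 0 CPM in unwounded LM1, where the groups did not overlap, and 97.3, 78.5, 74.4 and 35.5 CPM in wounded plasmatocytes and 83.3, 65.6, 51.3 and 53.5 CPM in unwounded plasmatocytes. Its interaction was 1.30 ± 0.22 (SE, edgeR adjusted p 3.83e-06). Each was fitted in 15 alternatives.

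Of 16 integrin and adaptor genes 4 passed, all larger in wounded, beside 0.675% of all genes called and 0.627% called larger: mys with 0.89 ± 0.18 (SE, edgeR adjusted p 2.78e-04), mew with 1.06 (edgeR adjusted p 0.0328), ItgaPS5 with 0.78 (edgeR adjusted p 0.0109) and rhea with 0.72 (edgeR adjusted p 0.0243). The ratios of mys were 0.81, 2.18, 1.55 and 1.80 in wounded and 0.52, 0.51, 0.88 and 2.16 in unwounded libraries, and each of the 4 calls was lost without wounded 2, where the values were 0.58 for mys, 0.80 for mew, 0.63 for ItgaPS5 and 0.53 for rhea. Over 15 alternatives the call was lost in 3 for mys, 12 for mew, 8 for ItgaPS5 and 10 for rhea. With the replicate block mew had an edgeR adjusted p of 0.0562 and no longer passed. Mmp1 passed with 1.46 ± 0.21 (SE, edgeR adjusted p 4.85e-09), and was lost without wounded 2 or without unwounded 4. The protease homologue CG18754 passed with 3.27 (edgeR adjusted p 1.38e-04), the protease gene CG33225 with 1.30 (edgeR adjusted p 2.31e-05), the extracellular matrix gene zye with 2.26 (edgeR adjusted p 0.00228), the phosphatidylinositol transfer protein gene rdgB with 2.06 (edgeR adjusted p 0.00495) and tmod, the actin-capping tropomodulin, with 1.69 (edgeR adjusted p 0.0274, and 0.0591 with the replicate block). CG4793, Act57B and lncRNA:CR44316, which had 1 to 3 UMIs in unwounded LM1, also passed. Acbp2, an acyl-CoA-binding protein gene, had the largest value, 6.39, but 957 of its 976 UMIs in plasmatocytes of unwounded 2 came from 1 cell. That cell also held 1281 of the 1292 UMIs of the gut protease gene Jon99Ciii, and the call was lost without unwounded 2. The 3 smaller differences, chosen after their values were seen, were those of Tina-1 (-0.91, edgeR adjusted p 0.0130), kar (-0.97, edgeR adjusted p 0.0322) and CG42369 (-0.70, edgeR adjusted p 0.0449). Over 15 alternatives their calls were lost in 7, 11 and 9. With the replicate block Pax also passed, larger at 0.87, and CG2444 and Nepl20, smaller at -1.25 and -0.73.

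In the wasp inf. 24 hr libraries the LM1 minus plasmatocyte difference was set against the same unwounded libraries. Of 6207 genes 248 passed (4.00%), 144 with a larger difference in wasp inf. 24 hr (2.32%) and 104 with a smaller one (1.68%). With RLE in place of TMM scaling 127 were larger and 138 smaller, so the split between directions depends on the scaling. The direction of the genes named next did not change with it. alphaTub85E had within-library log2 ratios of 5.38, 3.88 and 4.28 in wasp inf. 24 hr libraries 1 to 3 and 0.48, 1.29, 1.19 and 2.07 in unwounded libraries. The groups did not overlap, and the interaction was 3.22 ± 0.27 (SE, edgeR adjusted p 6.98e-21). The plasmatocytes took part in this, since alphaTub85E had 9.13 to 28.2 CPM in wasp inf. 24 hr plasmatocytes and 40.6 to 112 CPM in unwounded plasmatocytes.

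betaTub60D had log2 ratios of 5.69, 5.90 and 6.03 in wasp inf. 24 hr and 1.43, -0.13, 0.72 and -1.48 in unwounded libraries, an interaction of 5.38 ± 0.53 (SE, edgeR adjusted p 5.15e-16). PPO3 passed with 2.96 (edgeR adjusted p 2.47e-07), and the filamin cher, the kinase msn and the trehalase Treh passed with 1.13, 0.92 and 1.32, which makes 6 of 12 tested lamellocyte markers, beside 4.00% of all genes and with the same limits on what the number shows. atilla did not pass, at -0.09 with an edgeR adjusted p of 0.975: its ratio was 4.07 to 5.99 in wasp inf. 24 hr libraries and 0 to 4.85 in unwounded libraries, while its LM1 level was 1046 to 2073 CPM in wasp inf. 24 hr and 0 to 79.1 CPM in unwounded. The 4.85 and the 79.1 CPM come from 1 LM1 UMI of unwounded 4. Dgk, a diacylglycerol kinase gene, had log2 ratios of 2.93, 2.93 and 3.32 in wasp inf. 24 hr and -1.06, -2.45, -0.66 and -1.48 in unwounded libraries, but its unwounded LM1 level rests on 1 UMI. CG10359 had ratios of 3.54, 4.29 and 3.37 in wasp inf. 24 hr and 1.43, -0.05, 0.52 and 0 in unwounded libraries, an interaction of 4.72 ± 0.74 (SE, edgeR adjusted p 4.74e-07). Its unwounded LM1 levels rest on 0 to 3 UMIs per library. Whamy, which regulates actin assembly, also passed, with 19.7, 14.3 and 21.9 CPM in LM1 of wasp inf. 24 hr libraries and 0, 2.66, 0 and 0 CPM in unwounded LM1.

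Other genes that passed had no UMI in unwounded LM1, so no fold is given. CG42675 had 27.9, 14.6 and 12.6 CPM in LM1 cells 24 hr after infestation and ymp had 33.6, 79.6 and 25.2 CPM, both at 0 in all 4 unwounded LM1 sums, where 3 UMIs are worth 3.98 to 237 CPM. CG5011, CG15818, Cnx14D and NaPi-III were in the same position. In unwounded plasmatocytes 49 UMIs of ymp, 58 of CG42675, 17 of CG5011 and 31 of Cnx14D came from unwounded 2, against 0 to 5 from each other unwounded library. Each of the 6 calls was lost in 2 to 8 of the 11 to 13 alternatives in which it was fitted, with edgeR adjusted p up to 0.926 for ymp and 0.781 for CG42675. Of 15 integrin and adaptor genes 3 passed, beside 4.00% of all genes: cher, Pax with 0.96 (edgeR adjusted p 0.0158) and rhea with 1.12 (edgeR adjusted p 0.00224). Over 14 alternatives the call was lost in 2 for cher, 11 for Pax and 5 for rhea. Socs36E, a feedback target and inhibitor of JAK/STAT signalling, passed with 1.87 (edgeR adjusted p 0.000457). With et, which passed as smaller, it made 2 of 10 tested JAK/STAT genes, beside 4.00% of all genes, in opposite directions. Over 14 alternatives the call was lost in 4 for Socs36E and 4 for et. The actin nucleation promoter SCAR passed with 1.02 (edgeR adjusted p 0.00374). It was the only 1 of 27 tested actin cytoskeleton genes to pass, a share near the 4.00% of all genes. Over 14 alternatives its call was lost in 5.

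Genes with a smaller LM1 minus plasmatocyte difference in wasp inf. 24 hr libraries included markers of lymph gland progenitors. The lymph gland is the larval blood-forming organ, whose progenitors express Tep4 and Ance. Ance, a homologue of angiotensin-converting enzyme, had 468, 467 and 378 CPM in wasp inf. 24 hr LM1 and 282, 355, 138 and 79.1 CPM in unwounded LM1, beside 2812, 2353 and 1612 CPM in wasp inf. 24 hr plasmatocytes and 304, 373, 172 and 184 CPM in unwounded plasmatocytes. Its within-library log2 ratio was -2.58 to -2.09 in wasp inf. 24 hr and -1.20 to -0.07 in unwounded libraries, without overlap, and the interaction was -2.14 ± 0.30 (SE, edgeR adjusted p 9.60e-09). For Tep4, a thioester protein gene, the interaction was -2.24 (edgeR adjusted p 4.96e-10), with 219, 268 and 170 CPM in wasp inf. 24 hr LM1 against 1668, 1204 and 775 CPM in wasp inf. 24 hr plasmatocytes. The level that set these ratios apart was therefore that of the plasmatocytes, whose 4 progenitor markers summed to 2393 to 4515 CPM in wasp inf. 24 hr and 278 to 752 CPM in unwounded libraries, beside 550 to 738 CPM and 79.1 to 716 CPM in LM1. That sum is nearly all Ance and Tep4, since the other members, dome and shg, had 1 to 95 UMIs per library in these plasmatocytes and were too low to be tested.

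The rest of the smaller differences were CG42566 with -1.76 (edgeR adjusted p 1.11e-06), lncRNA:CR43855 with -1.72 (edgeR adjusted p 4.02e-05), the transporter-like gene kar with -2.07 (edgeR adjusted p 0.00156), the inositol trisphosphate kinase IP3K2 with -1.88 (edgeR adjusted p 3.80e-04), CG10433 with -2.88, CG6231 with -1.86, CG7800 with -1.55 and CG42565 with -1.54, the last being at 0 in all 10X Chromium libraries. The Nimrod genes NimB1 and NimB2 of the phagocytic list passed with -1.09 and -1.57, and NimB3 passed on 0, 0 and 2 UMIs in wasp inf. 24 hr LM1. Gadd45, a stress-response gene of the JNK list, passed with -1.83 (edgeR adjusted p 3.81e-06), its LM1 levels of 177, 54.9 and 167 CPM in wasp inf. 24 hr lying beside 268, 513 and 463 CPM in the plasmatocytes of the same libraries. Mmp2 and msn of that list passed as larger, which makes 3 of 14 tested JNK genes, beside 4.00% of all genes. Over 14 alternatives the call was lost in 1 for Gadd45, 8 for Mmp2 and 8 for msn. None of 11 plasmatocyte markers passed in edgeR, with eater at an unadjusted p under 0.05.

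Set beside LM2, the cluster the study named as lamellocytes, LM1 lay in between for many but not all genes. At least 10 LM2 cells were held by 6 libraries (wounded 1, 3 and 4, wasp inf. 24 hr 2 and 3, and unwounded 3). Over their 2266 genes with a mean of at least 50 CPM, 269 were higher in LM2 than in plasmatocytes in all 6 libraries, and LM1 lay between the other two in all 6 for 86 of them and in at least 5 for 167. Of 352 genes lower in LM2 in all 6, LM1 lay between in all 6 for 36 and in at least 5 for 120. These are descriptions of clusters that were made from the same genes.

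For the integrin mys the means were 595 CPM in LM1, 1903 CPM in LM2 and 252 CPM in plasmatocytes. Those of alphaTub85E were 758, 8339 and 156 CPM in the same order, with LM1 between the other classes in all 6 libraries. The steps were uneven: atilla averaged 602 CPM in LM1, 4650 CPM in LM2 and 29.6 CPM in plasmatocytes, PPO3 130, 1729 and 10.2 CPM, and the trehalase Treh 87.1, 1167 and 65.1 CPM, the last close to its plasmatocyte level in LM1. Plasmatocyte genes differed in where LM1 sat. Hml, at 3111 CPM in LM1, 1701 CPM in LM2 and 4055 CPM in plasmatocytes, and the peroxidasin Pxn, at 1817, 1015 and 2473 CPM, were nearer the plasmatocyte mean. The collagen gene vkg, at 2701, 2032 and 3616 CPM, was nearer the LM2 mean. In wounded LM2 an Hml UMI was found in 36.7 to 81.1% of cells.

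A smaller set of genes was highest in LM1. LM1 was above both LM2 and plasmatocytes in all 6 libraries for 24 genes and below both for 1. The amino acid transporter path averaged 189 CPM in LM1, 129 CPM in LM2 and 62.9 CPM in plasmatocytes, and CG42394 averaged 4034, 1609 and 2295 CPM. The non-muscle myosin heavy chain zip averaged 721, 381 and 657 CPM. sano, at 118, 88.2 and 17.1 CPM, was above both in 5 of 6 libraries. Mmp1 and Mmp2 were above both in 4 of 6, but their means were highest in LM2, at 608 CPM in LM1, 796 CPM in LM2 and 384 CPM in plasmatocytes for Mmp1 and at 96.5, 112 and 27.9 CPM for Mmp2.

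**Figure D5:**
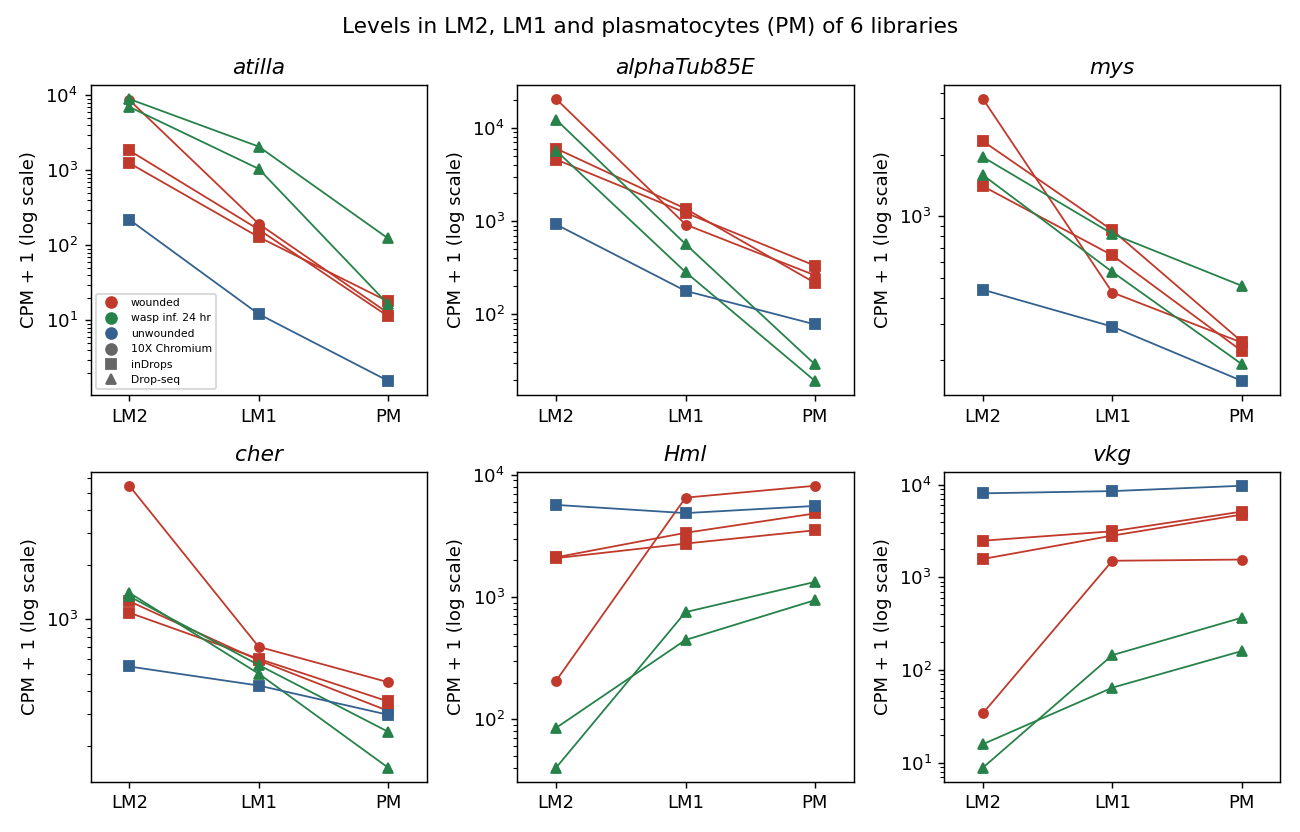
CPM of atilla, alphaTub85E, mys, cher, Hml and vkg in LM2, LM1 and plasmatocytes of the 6 libraries with at least 10 LM2 cells, each library joined by a line. Means for LM1, LM2 and plasmatocytes are 602, 4650 and 29.6 CPM for atilla and 3111, 1701 and 4055 CPM for Hml, with LM1 between the other two.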

How the data were processed

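Single-cell RNA sequencing of larval hemocytes was read from the table of UMI counts that the authors merged over 11 libraries and deposited, raw and not normalized, with a deposited cell table giving library, cluster number and mitochondrial percent. Per the study's methods, cells with too few UMIs or genes or a high mitochondrial share had been removed, libraries were aligned with Harmony and clustered with Seurat, and genes measured in at least 2 of the 3 conditions were kept. No removal of doublets is described. The cluster alignment mixes technologies, so that where a cell falls may depend on it. The summed counts of all 19458 cells equalled the deposited totals. The wasp inf. 48 hr libraries were not analysed here.

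UMIs were summed over LM1 and over PM1 to PM12 cells of each library, giving 12647 to 3279820 UMIs for LM1. Levels are CPM of those sums. Of 5744 genes with a mean of at least 10 CPM, log2 ratios with 1 CPM added were taken within libraries. Condition tests used edgeR 4.0.16 (quasi-likelihood F test, TMM, filterByExpr, Benjamini-Hochberg adjusted p under 0.05) in R 4.3.3, with technology as covariate in LM1 alone, and with library blocks in the LM1 minus plasmatocyte comparisons, with class by technology added for wounded against unwounded. Scripts were tested on simulated counts. Shares were compared by exact permutation over libraries, and intervals are Clopper-Pearson at 95%. The alternatives were RLE scaling, DESeq2 1.42.0, no filter on low counts, other covariates, PM2 to PM12, single technologies, thinning to 1000 UMIs, leaving out libraries and, chosen after seeing the data, leaving out shared barcodes, thinning for the atilla share, and other denominators and left-out libraries for the wasp inf. 24 hr share.

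Wounded and unwounded libraries share replicate numbers. The deviations of same-numbered libraries from their group means correlated at 0.606, 0.642, 0.461 and 0.390 over 4961 genes. Wounded and unwounded libraries of the same technology but different number correlated at 0.534, 0.411, 0.331 and 0.270. Same-numbered libraries thus correlated more than differently numbered ones of their technology, which were also positively correlated. How much of this comes from technology and how much from pairing was not tested. Numbers 3 and 4 were multiplexed pairs per the labels, and numbers 1 and 2 shared a technology. The numbers were taken as pairs only in the replicate block, and the main tests did not use them.

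The cluster, the gene lists and the tests were chosen with earlier results of these data known. Named were the 15 highest and 10 lowest median ratios among genes of the same sign in at least 10 of 11 libraries with a mean of at least 50 CPM in the higher class, up to 10 calls per direction and test whose libraries did not overlap, and examples of each list. Gene positions came from Ensembl's annotation of the Release 6 assembly, in which 64 of 66 symbols were found.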

Additional observations from a re-analysis of the deposited data

Results flagged for a closer look

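Groups of 4 libraries were screened for a library far from the other 3 by Dixon's criterion, and 17 of 76 groups had one, where chance gives about 5%. Wounded 3 stood apart in its share of LM1 cells, at 17.7% against 7.81 to 9.33% in the other wounded libraries. Among the wounded LM1 levels, wounded 1 was low in sano, at 41.0 CPM against 104 to 117 CPM. Wounded 2 was high in Ac78C at 136 CPM, in Drs at 1616 CPM and in lncRNA:CR44316 at 148 CPM. Wounded 3 was high in CG15093 at 228 CPM and in CG4793 at 114 CPM.

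Unwounded 4, with 10 LM1 cells in which 3 UMIs are worth 237 CPM, was far above the other unwounded libraries in 6 genes. Its values were 158 CPM for CG18754, 237 CPM for PPO3, 158 CPM for wun2, 553 CPM for sano, 316 CPM for Mmp2 and 158 CPM for Ac78C. Single libraries also held all the unwounded LM1 UMIs of 4 genes: unwounded 2 had 1.33 CPM of CG14610, 1.33 CPM of CG10232 and 5.31 CPM of CG1648, and unwounded 3 had 2.22 CPM of CG4793.

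The difference of LM1 from plasmatocytes itself differed between conditions, by the interaction tests, for 42 genes between wounded and unwounded and for 248 genes between wasp inf. 24 hr and unwounded libraries. In the second case the conditions cannot be told apart from technology and strain.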

How the results depend on the processing

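The share of LM1 cells in wounded minus unwounded libraries was -0.0711 percentage points with PM1 cells left out of the denominator, and 0.934 to 5.31 with 1 library left out. For wasp inf. 24 hr the left-out range was 4.90 to 19.8. In LM1, wounded against unwounded gave 112 calls with no filter on low counts, 18 with no technology covariate, 144 with the replicate block, 23 in 10X Chromium alone, 27 in inDrops alone and 40 to 75 with 1 library left out, the most without wounded 1. For the LM1 minus plasmatocyte difference, wounded against unwounded gave 9 calls after thinning to 1000 UMIs, 50 with the replicate block and 15 to 109 with 1 library left out, namely 109 without wounded 1, 15 without wounded 2, 19 without wounded 4, 26 without unwounded 1, 15 without unwounded 2, 18 without unwounded 3 and 27 without unwounded 4. The split was 92.9% larger, against 74.2% with PM2 to PM12, 89.7% with RLE scaling. For wasp inf. 24 hr the count was 72 against unwounded 10X Chromium libraries alone, 53 against unwounded inDrops libraries alone, 30 after thinning and 133 to 266 with 1 library left out, 133 without unwounded 2 and 149 without wasp inf. 24 hr 3. Its share of larger differences was 58.1%, 47.9% with RLE scaling and 49.6% without shared barcodes. Over all settings it ran from 42.5% without wasp inf. 24 hr 1 to 79.2% against unwounded inDrops libraries alone. The cause of these moves was not tested, apart from the smaller number of genes and libraries that some settings leave.

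The atilla interaction, which passed in no setting, changed sign after thinning in wounded (0.53), and in wasp inf. 24 hr after thinning (0.89), against unwounded inDrops libraries alone (0.49) and without wasp inf. 24 hr 1 (0.08), wasp inf. 24 hr 3 (0.37) or unwounded 2 (0.51). With 1 library left out it ran from -0.74 to 0.51 there. That of Drs, -0.75 to 0.84 with 1 library left out and up to 2.10 over 15 alternatives, did so without wounded 2 (-0.22) and without unwounded 2. That of Mtk, -0.996 to 0.44, did so with the replicate block (0.30) and without wounded 1 (0.25), wounded 4 (0.05) or unwounded 3, and that of NimB3 in wasp inf. 24 hr after thinning (0.18). After thinning, 212 genes in place of 348 were higher in LM1 in at least 10 libraries, and the mean atilla share was 8.95% in wounded and 41.0% in wasp inf. 24 hr libraries. Direction and side of the threshold held in every setting run for 8 of 22 genes given in LM1 alone, 2 of 24 in the wounded interaction and 7 of 45 in the wasp inf. 24 hr interaction. The 10 LM1 cells of unwounded 4 limit every unwounded value.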
